A study of Homo sapiens with 8 samples.

Results

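The genes described here encode the enzymes that put methyl groups on the lysines of histones and the enzymes that take them off. They were picked by symbol from the deposited RNA table, and antisense rows were left out. The rule took the KDM, KMT2 to KMT5, MLL and SETD series, SETDB1, SETDB2, SETMAR, SUV39H1, SUV39H2, SUV420H1, SUV420H2, EHMT1, EHMT2, NSD1, WHSC1, WHSC1L1, DOT1L, ASH1L and UTY. It found 47 of 18892 genes, 29 methyltransferase or SET domain genes and 18 demethylase genes. UTY was not analysed here. RNA was measured in C4-2, an established prostate cancer cell line and a castration-resistant descendant of LNCaP. One group held 2 polyA RNA libraries of cells with a short hairpin against CDCA8 (shCDCA8), and the other held 2 libraries of cells with a control hairpin (shCTRL). CDCA8 encodes borealin, which works with Aurora B in chromosome segregation. The 4 small RNA libraries of the series, from shEZH2 and shCTRL cells, measure microRNAs and were not used here. The labels do not say whether the libraries came from separate cultures. The p-values therefore rest on the spread between these libraries, estimated in part over all tested genes, and this spread may be technical. With 1 hairpin label per target, what the hairpin does to other transcripts and what follows from less CDCA8 cannot be told apart. The labels do not say whether the transfected cells were a clone or a pool.

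Methylation of a histone lysine does not change its charge and acts mostly through the proteins that bind it. Methylation of lysine 4 of histone H3 (H3K4) marks promoters and enhancers in use, that of H3K36 and H3K79 marks transcribed genes, and that of H3K9, H3K27 and H4K20 marks silent or condensed chromatin. Nearly all of the methyltransferases carry a SET domain and use S-adenosylmethionine as the methyl donor. The demethylases fall into the flavin-dependent KDM1 pair and the JmjC family, which needs iron, oxygen and 2-oxoglutarate. In prostate cancer several of them, KDM1A, KDM3A and KDM4B among them, are known as coregulators of the androgen receptor.

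Values are RPM, read counts that the authors scaled to a library total. The 4 libraries had totals of 46709612 to 55289855 reads, of which 17406425 to 21920570 fell in gene rows. Genes that reached 1 RPM in 2 or more of the 4 libraries (the kept genes) were tested with limma on log2(RPM + 1), and a gene is called where the Benjamini-Hochberg adjusted p over all 11833 such genes is under 0.05. "Rose" and "fell" are used of calls, and every fold change is on this scale, shCDCA8 minus shCTRL, which understates the change of low genes. limma draws the variance of each gene toward a trend over all kept genes. Its SE, intervals and p-values thus rest only in part on the gene's own 4 values. A fit with 1 library left out rests on that trend still more, so its calls and p-values are not comparable with those of all 4 libraries. CDCA8 itself stood at 3.98 and 3.94 RPM in shCDCA8, against 14.2 and 16.5 RPM in shCTRL. The table moved as a whole: gene rows took 33.3% and 34.2% of the total in shCDCA8 and 41.1% and 43.6% in shCTRL, and the median log2 fold change over all kept genes was -0.27. Counts of called enzyme genes, and many of their fold changes, are therefore also given after median-ratio scaling. This scaling sets each library by the typical ratio of its genes to their average over the 4 libraries and brings that median to 0.01. A fold change without a stated scaling is as deposited and holds the shift of the whole table. So do the fold changes of single partner and marker genes. RPM is not divided by transcript length, so levels of different genes are not compared. In bulk RNA, fewer cells of a type and less RNA per cell cannot be told apart.

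Of the 47 genes, 45 passed the filter on low values and 28 of them were called (62.2%), where 66.4% of all kept genes were called. The share of enzyme genes called was thus close to the background. As deposited 13 rose and 15 fell, 28.9% and 33.3% of the 45, where 18.8% of all kept genes rose and 47.6% fell. With median-ratio scaling 20 were higher and 9 lower among 29 calls (64.4%, where 66.8% of all kept genes were called). That was 44.4% higher and 20% lower, where 33.2% of all kept genes were higher and 33.6% lower. All 13 rises held under both scalings, as did 9 of the 15 falls. No enzyme gene was called in opposite directions by the 2 scalings. The median log2 fold change of the 45 was -0.07 as deposited and 0.23 with median-ratio scaling, beside -0.27 and 0.01 for all kept genes. As deposited 5 were called with at least a 2-fold change (11.1%, against 17.8% of all kept genes), of which KMT2E and KDM7A rose and SETMAR, NSD1 and SETD5 fell. With median-ratio scaling 8 were (17.8%, against 15.2% of all kept genes), 7 higher (KMT2E, KDM7A, KMT2C, KDM3A, SUV420H1, ASH1L and SETDB2) and 1 lower (SETMAR). The counts by substrate that follow are of few genes and are to be read against these shares of all kept genes.

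**Figure D1:**
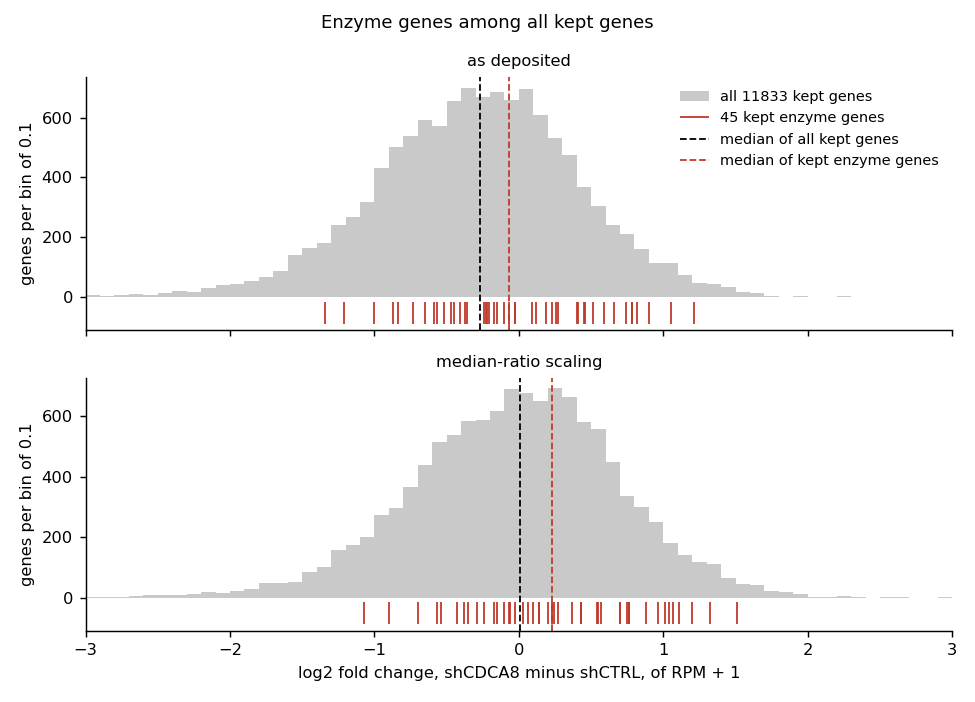
Log2 fold changes of RPM + 1, shCDCA8 minus shCTRL, as a histogram of the 11833 kept genes in bins of 0.1 (grey, with the outermost genes cropped), with a red tick for each of the 45 kept enzyme genes and dashed lines at both medians. The median of the enzyme genes lies at -0.07 against -0.27 for all genes as deposited (top), and at 0.23 against 0.01 with median-ratio scaling (bottom).

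**Figure D2:**
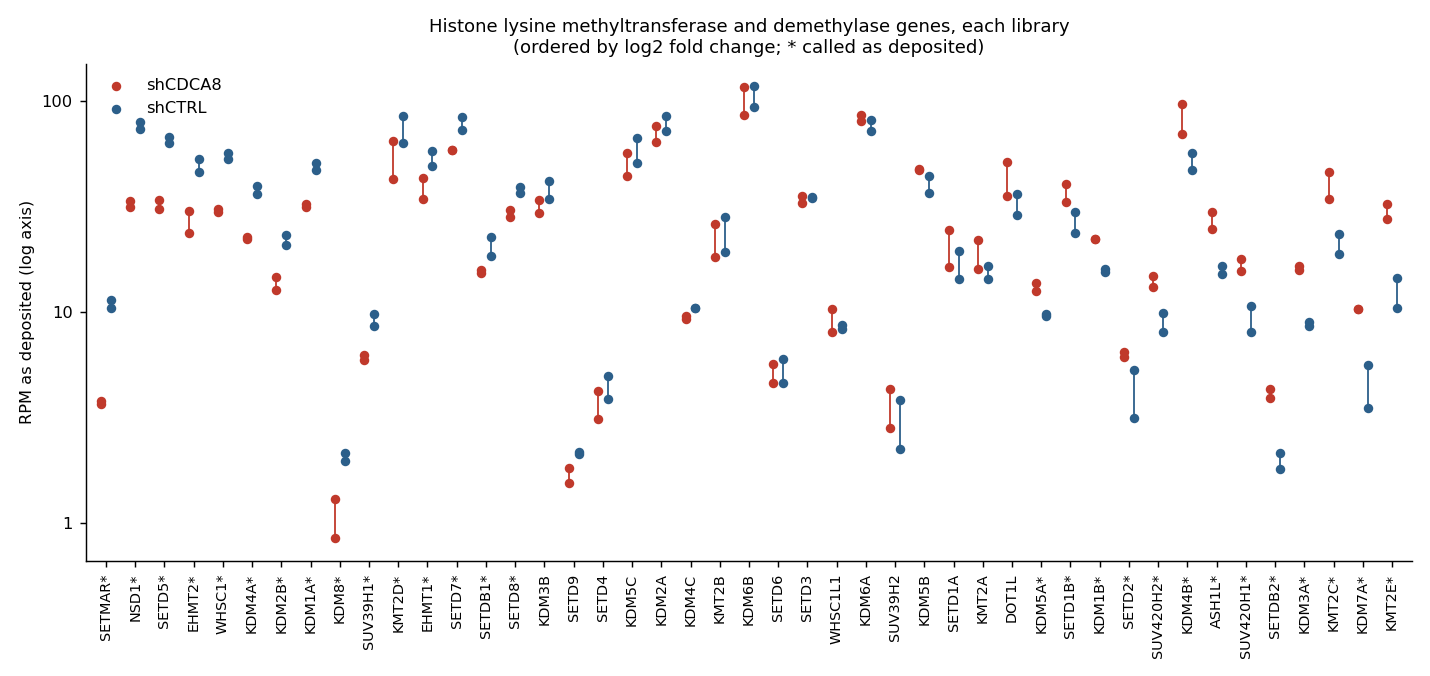
RPM of each kept enzyme gene on a log axis, 1 point per library, shCDCA8 in red to the left of shCTRL in blue, with a line joining the 2 libraries of a group and genes ordered by log2 fold change. SETMAR, at 3.77 and 3.65 against 10.4 and 11.4 RPM, stands at the low end and KMT2E, at 27.6 and 32.7 against 14.5 and 10.5 RPM, at the high end.

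The groups did not overlap for 31 of the 45 genes (68.9%), where 83.2% of all kept genes did not overlap. The spread between the libraries of a group was wider at the median of the enzyme genes than at that of all kept genes. The median absolute log2 difference between the 2 libraries was 0.18 in shCDCA8 and 0.21 in shCTRL for the enzyme genes, against 0.13 in both groups over all kept genes, a contrast that was not tested.

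The H3K4 methyltransferases were split. Of 8 genes, 3 rose and 2 fell as deposited, and 5 were higher and none lower with median-ratio scaling (median log2 fold change 0.26 as deposited and 0.56 so scaled). Over all kept genes 18.8% rose and 47.6% fell as deposited, and 33.2% were higher and 33.6% lower with median-ratio scaling. KMT2E, which is among the 3 rises, is counted here by its MLL family, although no histone methyltransferase activity is firmly known for this SET domain protein. KMT2E had the largest rise of the 45 genes. It stood at 27.6 and 32.7 RPM in shCDCA8, against 14.5 and 10.5 RPM in shCTRL, so both knockdown libraries lay well above both controls. With 2 libraries a group it changed by 1.21 ± 0.153 (SE) on the log2 scale (limma adjusted p = 2.79e-05), and by 1.51 with median-ratio scaling. KMT2C, a subunit of the complex that monomethylates H3K4 at enhancers, stood at 34.5 and 46.3 RPM in shCDCA8, against 23.4 and 18.8 RPM in shCTRL. It rose by 0.90 ± 0.151 (limma adjusted p = 0.000248), although its reads can be shared with copies of part of the gene elsewhere in the genome. SETD1B, a catalytic subunit of the complex that trimethylates H3K4 at promoters, rose by 0.45, with 33.2 and 40.5 RPM in shCDCA8, against 23.6 and 30.0 RPM in shCTRL. That call ended when shCTRL replicate 1 was left out (0.28, limma adjusted p = 0.11) and when shCDCA8 replicate 2 was (0.31, limma adjusted p = 0.0877).

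The enhancer enzyme KMT2D, the closest relative of KMT2C, moved the other way as deposited. It stood at 42.8 and 64.7 RPM in shCDCA8, against 63.6 and 85.0 RPM in shCTRL, so the groups overlapped. Its fall of 0.47 on the log2 scale (limma adjusted p = 0.0323) was lost in 10 of 16 alternatives. It stood at -0.17 with median-ratio scaling (limma adjusted p = 0.406), and at -0.27 when shCTRL replicate 2 was left out (limma adjusted p = 0.13). Leaving out shCDCA8 replicate 1 gave -0.18 (limma adjusted p = 0.286) and leaving out shCDCA8 replicate 2 gave -0.77. SETD7, which monomethylates H3K4 and many other proteins, fell to 59.1 and 58.8 RPM in shCDCA8, against 84.2 and 73.0 RPM in shCTRL. That fall of 0.41 was lost with median-ratio scaling (-0.10, limma adjusted p = 0.433) and without shCTRL replicate 1 (-0.30, adjusted p = 0.0652). KMT2A, KMT2B and SETD1A, catalytic subunits of further H3K4 complexes, were not called as deposited. Their 95% intervals ran from -0.06 to 0.61, from -0.51 to 0.31 and from -0.14 to 0.66. With median-ratio scaling KMT2A (0.57, limma adjusted p = 0.00655) and SETD1A (0.55, adjusted p = 0.021) were called higher, while KMT2B was not (0.20, adjusted p = 0.345). As deposited these 3 genes moved with single libraries. Without shCDCA8 replicate 1 KMT2A (0.49, limma adjusted p = 0.0124) and SETD1A (0.53, adjusted p = 0.00526) were called, as they were without shCTRL replicate 2 (0.38 and 0.47). SETD1A stood at -0.02 without shCDCA8 replicate 2, and KMT2B was called lower without shCTRL replicate 1 (-0.36, limma adjusted p = 0.0484).

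Of the 6 H3K9 methyltransferases, EHMT1, EHMT2, SUV39H1 and SETDB1 fell as deposited and SETDB2 rose. EHMT2 (G9a), which dimethylates H3K9 in a pair with EHMT1, stood at 23.7 and 30.1 RPM in shCDCA8, against 46.1 and 53.5 RPM in shCTRL. It fell by 0.87 on the log2 scale (SE 0.132, n = 2 against 2, limma adjusted p = 0.000115) and by 0.57 with median-ratio scaling. It was the only gene of the 6 called lower under both. EHMT1 (GLP) fell to 34.6 and 43.5 RPM in shCDCA8, against 49.2 and 58.2 RPM in shCTRL. SUV39H1, which trimethylates H3K9 in pericentric heterochromatin, fell to 6.22 and 5.93 RPM in shCDCA8, against 8.55 and 9.76 RPM in shCTRL. SETDB1, which silences retroelements with TRIM28, fell to 15.4 and 15.8 RPM in shCDCA8, against 18.4 and 22.6 RPM in shCTRL. The groups of these 3 genes did not overlap, but with median-ratio scaling none of them was called. EHMT1 then stood at -0.15 (limma adjusted p = 0.26), SUV39H1 at -0.24 (adjusted p = 0.115) and SETDB1 at -0.07 (adjusted p = 0.595).

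The calls of EHMT1 and SETDB1 also hung on single libraries. Without shCTRL replicate 2 EHMT1 stood at -0.33 (limma adjusted p = 0.0551) and SETDB1 at -0.23 (adjusted p = 0.238). Without shCDCA8 replicate 1 EHMT1 stood at -0.29 (limma adjusted p = 0.0883) and SETDB1 at -0.35 (adjusted p = 0.0803). SETDB2, a relative of SETDB1, rose to 3.89 and 4.30 RPM in shCDCA8, against 2.14 and 1.80 RPM in shCTRL. That rise was 0.78 on the log2(RPM + 1) scale (limma adjusted p = 0.000333) and 1.01 with median-ratio scaling. With a pseudocount of 0.1 RPM it was 1.02 as deposited. In edgeR on the recovered reads, which adds no pseudocount of 1 RPM and also rescales the libraries, the rise was 1.36. SUV39H2, the relative of SUV39H1, had 4.33 and 2.80 RPM in shCDCA8 and 3.81 and 2.23 RPM in shCTRL, which overlap, and was not called under either scaling. It was called higher without shCTRL replicate 1 (0.48, limma adjusted p = 0.0124) and stood at -0.10 without shCTRL replicate 2.

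The genes listed here as H3K36 methyltransferases held the largest falls of the 45 genes, those of SETMAR and NSD1. Of 6 genes 3 fell and 2 rose as deposited, and 3 were lower and 3 higher with median-ratio scaling. NSD1, which dimethylates H3K36 over intergenic and genic regions, stood at 31.6 and 33.8 RPM in shCDCA8, against 80.0 and 73.6 RPM in shCTRL. Both knockdown libraries lay far below both controls, and NSD1 fell by 1.21 on the log2 scale (SE 0.105, n = 2 against 2, limma adjusted p = 1.69e-06) or by 0.90 with median-ratio scaling. WHSC1 (NSD2), its relative and a known driver in myeloma, fell to 30.8 and 30.0 RPM in shCDCA8, against 53.4 and 57.2 RPM in shCTRL. That was a log2 fold change of -0.84 ± 0.106 (limma adjusted p = 2.69e-05) and of -0.54 with median-ratio scaling. SETMAR, in which a SET domain is fused to the transposase of a mariner element, stood at 3.77 and 3.65 RPM in shCDCA8, against 10.4 and 11.4 RPM in shCTRL. Its fall of 1.34 (SE 0.132, limma adjusted p = 4.5e-06) was the largest of the 45 genes, with the limit that reads of the transposase part can be shared with other mariner copies.

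The rises in the H3K36 group were of ASH1L and SETD2. ASH1L, a Trithorax-type enzyme that dimethylates H3K36, stood at 24.7 and 29.8 RPM in shCDCA8, against 16.5 and 15.2 RPM in shCTRL (log2 fold change 0.74, limma adjusted p = 0.000284). SETD2, the enzyme that trimethylates H3K36 behind elongating RNA polymerase, had 6.09 and 6.44 RPM in shCDCA8 and 5.33 and 3.13 RPM in shCTRL. The control libraries of SETD2 lay far apart, and its rise of 0.51 (limma adjusted p = 0.028) became 0.20 (adjusted p = 0.331) without shCTRL replicate 2 and 0.82 without shCTRL replicate 1, and was not called without the filter on low values (adjusted p = 0.105). WHSC1L1 (NSD3), the third gene of the NSD family, had 8.02 and 10.3 RPM in shCDCA8 and 8.67 and 8.29 RPM in shCTRL. Its groups overlapped and it was not called as deposited (0.09, 95% interval -0.22 to 0.41), while with median-ratio scaling it was called higher (0.37, limma adjusted p = 0.0382).

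**Figure D3:**
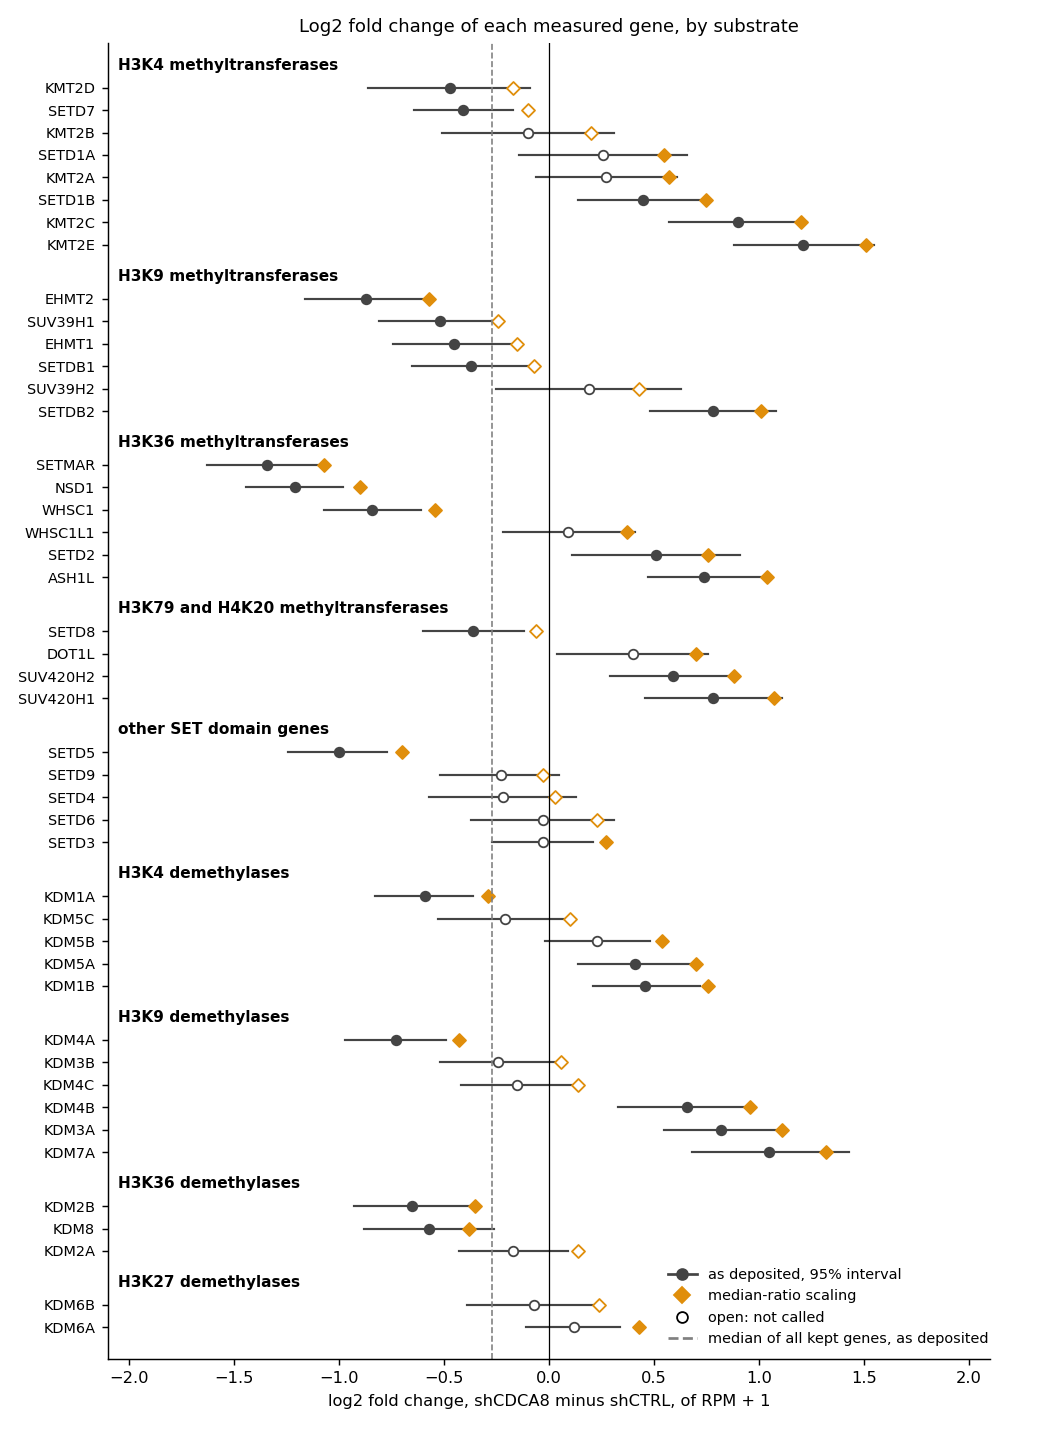
Log2 fold change of RPM + 1, shCDCA8 minus shCTRL, of the 45 kept genes grouped by substrate, as deposited (circles with 95% intervals) and with median-ratio scaling (diamonds), filled where called and open where not, with a dashed line at the median of all kept genes (-0.27). Every group of 3 or more genes except the other SET domain genes and the H3K36 demethylases holds called genes on both sides of 0 as deposited.

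Of the H4K20 enzymes, those that add the higher methyl states rose and the one that adds the first methyl group did not. SUV420H1 (KMT5B) stood at 15.7 and 17.8 RPM in shCDCA8, against 10.7 and 8.03 RPM in shCTRL, which is 0.78 ± 0.149 (SE) on the log2 scale (limma adjusted p = 0.000607). SUV420H2 (KMT5C) rose to 13.1 and 14.8 RPM in shCDCA8, against 8.01 and 9.87 RPM in shCTRL (0.59, limma adjusted p = 0.00268). Both were higher in each knockdown library than in each control library, and both calls held in all 16 alternatives tried. SETD8 (KMT5A), the cell-cycle-controlled monomethyltransferase of H4K20, fell to 30.6 and 28.3 RPM in shCDCA8, against 36.8 and 39.3 RPM in shCTRL. Its fall of 0.36 (limma adjusted p = 0.0123) was lost with median-ratio scaling (-0.06, adjusted p = 0.63). It was lost too when shCTRL replicate 2 (-0.31, limma adjusted p = 0.0765) or shCDCA8 replicate 2 (-0.31, adjusted p = 0.0827) was left out. SETD8 has processed copies in the genome with which reads can be shared. DOT1L, the only H3K79 methyltransferase and one without a SET domain, had 35.5 and 51.7 RPM in shCDCA8 and 28.8 and 36.2 RPM in shCTRL. The groups of DOT1L overlapped, and it was not called as deposited (0.40, limma adjusted p = 0.0505) but was called higher with median-ratio scaling (0.70, adjusted p = 0.00369). As deposited DOT1L was called without shCDCA8 replicate 1 (0.66, limma adjusted p = 9.53e-05) and without shCTRL replicate 2 (0.56, adjusted p = 0.00169), while it stood at 0.13 without shCDCA8 replicate 2 (adjusted p = 0.486) and at 0.24 without shCTRL replicate 1.

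Among the other 5 SET domain genes SETD5 stood apart. SETD5, a chromatin protein without firmly known histone methyltransferase activity, had 30.7 and 33.9 RPM in shCDCA8, against 63.7 and 67.5 RPM in shCTRL. Both knockdown libraries lay far below both controls, and SETD5 fell (95% interval of the log2 fold change -1.24 to -0.77, limma adjusted p = 7.91e-06), also with median-ratio scaling (-0.70). SETD3, which methylates a histidine of actin, was at 35.6 and 32.9 RPM in shCDCA8 and at 34.7 and 35.2 RPM in shCTRL (-0.03, 95% interval -0.27 to 0.21), and was called higher with median-ratio scaling (0.27, limma adjusted p = 0.0341). SETD4, SETD6 and SETD9 were not called under either scaling, with log2 fold changes between -0.23 and -0.03 as deposited.

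Among the demethylases, close relatives moved in opposite directions in both the KDM1 and the KDM4 families. KDM1A (LSD1), the flavin enzyme that removes methyl groups from H3K4 in the CoREST complex, stood at 31.7 and 32.6 RPM in shCDCA8, against 47.2 and 51.0 RPM in shCTRL. It fell by 0.59 on the log2 scale (SE 0.106, n = 2 against 2, limma adjusted p = 0.000397) and by 0.29 with median-ratio scaling. KDM1B (LSD2), which acts on the same residue in transcribed regions, averaged 22.1 ± 0.0361 RPM in shCDCA8 and 15.8 ± 0.381 RPM in shCTRL (SD, n = 2 each). It rose by 0.46 (limma adjusted p = 0.00379) and by 0.76 with median-ratio scaling. KDM4A, a JmjC enzyme that removes trimethylation from H3K9 and H3K36, fell to 22.1 and 22.8 RPM in shCDCA8, against 36.2 and 39.6 RPM in shCTRL (-0.73, limma adjusted p = 0.000122). KDM4B, which acts on the same residues, rose to 69.9 and 97.0 RPM in shCDCA8, against 47.1 and 57.1 RPM in shCTRL (0.66, limma adjusted p = 0.00197). The knockdown libraries of KDM4B lay far apart, and without shCDCA8 replicate 2 the rise was 0.42 (limma adjusted p = 0.00825). KDM4C, the third of these, had 9.23 and 9.59 RPM in shCDCA8 and 10.5 and 10.5 RPM in shCTRL and was not called under either scaling.

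The 250 bases before the RefSeq start of each gene of these opposite pairs are given here to set their promoters side by side. They were read from RefSeq on GRCh38.p14, while the submitters' processing notes name hg19, and all 4 genes lie on the plus strand. Capitals mark a CCAAT box (CCAAT), an E2F-type site (TTCCCGC) or an E-box (CACGTG), each searched on both strands, as was an ATF4-type site (TGATGNAA), with no overlap between motifs. KDM1A lies at chr1:23019218-23019467, KDM1B at chr6:18155172-18155421, KDM4A at chr1:43649899-43650148 and KDM4B at chr19:4968863-4969112.
KDM1A: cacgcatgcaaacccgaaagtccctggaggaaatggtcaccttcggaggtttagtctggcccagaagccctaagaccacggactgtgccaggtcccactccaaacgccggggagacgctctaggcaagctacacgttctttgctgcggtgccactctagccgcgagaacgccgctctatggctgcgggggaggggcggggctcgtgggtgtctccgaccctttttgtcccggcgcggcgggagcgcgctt
KDM1B: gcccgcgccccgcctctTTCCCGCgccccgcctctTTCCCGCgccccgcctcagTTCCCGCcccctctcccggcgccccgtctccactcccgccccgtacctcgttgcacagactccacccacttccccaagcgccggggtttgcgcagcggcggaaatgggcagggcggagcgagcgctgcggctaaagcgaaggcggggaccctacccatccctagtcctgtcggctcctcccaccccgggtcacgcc
KDM4A: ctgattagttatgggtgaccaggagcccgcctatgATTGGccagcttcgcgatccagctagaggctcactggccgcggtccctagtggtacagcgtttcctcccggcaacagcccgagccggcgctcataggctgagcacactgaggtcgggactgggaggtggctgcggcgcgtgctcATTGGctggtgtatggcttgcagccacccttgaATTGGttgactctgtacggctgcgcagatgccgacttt
KDM4B: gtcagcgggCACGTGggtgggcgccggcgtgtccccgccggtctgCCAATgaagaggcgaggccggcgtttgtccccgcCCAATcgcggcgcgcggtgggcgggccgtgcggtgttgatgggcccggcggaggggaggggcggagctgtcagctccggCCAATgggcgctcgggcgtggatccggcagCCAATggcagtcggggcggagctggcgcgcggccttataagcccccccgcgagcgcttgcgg
The window of KDM1B, which rose, held 3 E2F-type sites, and that of KDM1A, which fell, held none of the motifs. KDM4A, which fell, and KDM4B, which rose, held 3 and 4 CCAAT boxes, and KDM4B an E-box as well. In the table of promoters 43 of the 47 genes had at least 1 window, 61 windows in all. A CCAAT box stood in 32.8% of these windows and in 32% of all 35116 windows of the same length. An E-box stood in 14.8% against 6.34%, an E2F-type site in 3.28% against 5.52%, and an ATF4-type site in 0% against 3.14%. These are counts of letters, were not tested, and were computed with the calls known.

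Of the JmjC enzymes of H3K4, KDM5A rose to 13.7 and 12.6 RPM in shCDCA8, against 9.55 and 9.74 RPM in shCTRL (0.41, limma adjusted p = 0.0126), a call that was lost without shCDCA8 replicate 1 (0.35, adjusted p = 0.104). KDM5B had 47.3 and 47.9 RPM in shCDCA8 and 36.8 and 44.3 RPM in shCTRL. The groups of KDM5B did not overlap, and it was not called as deposited (0.23, limma adjusted p = 0.095) but was with median-ratio scaling (0.54, adjusted p = 0.00122). As deposited it was called without shCTRL replicate 2 (0.36, limma adjusted p = 0.0341) and stood at 0.10 without shCTRL replicate 1. KDM5C, the X-linked member, had 44.4 and 57.2 RPM in shCDCA8 and 51.0 and 66.7 RPM in shCTRL and was not called under either scaling. Leaving out shCTRL replicate 1 made KDM5C a called fall as deposited (-0.40, limma adjusted p = 0.0187), as did leaving out shCDCA8 replicate 2 (-0.39, adjusted p = 0.0175).

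The H3K9 demethylases KDM3A and KDM7A rose clearly. KDM3A, a hypoxia-induced enzyme of mono- and dimethylated H3K9, stood at 15.9 and 16.5 RPM in shCDCA8, against 8.57 and 8.93 RPM in shCTRL, with little spread in either group. It rose by 0.82 ± 0.124 (SE) on the log2 scale (limma adjusted p = 0.000108) and by 1.11 with median-ratio scaling. KDM7A, which acts on H3K9 and H3K27, stood at 10.3 and 10.3 RPM in shCDCA8, against 5.57 and 3.51 RPM in shCTRL (1.05 ± 0.171, limma adjusted p = 0.000194). KDM3B, the relative of KDM3A, had 29.6 and 34.2 RPM in shCDCA8 and 34.4 and 41.7 RPM in shCTRL and was not called under either scaling (-0.24, 95% interval -0.52 to 0.03). Leaving out shCTRL replicate 1 made KDM3B a called fall as deposited (-0.38, limma adjusted p = 0.0294), as did leaving out shCDCA8 replicate 2 (-0.34, adjusted p = 0.0491). KDM4D and KDM4E, a pair of further KDM4 genes, did not pass the filter. KDM4D had 0.23 and 0.253 RPM in shCDCA8, against 0.994 and 1.09 RPM in shCTRL, and was called lower when no filter was used (-0.72, limma adjusted p = 0.000623). KDM4E had at most 0.0383 RPM, which is fewer than 3 reads, in any library.

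The H3K36 demethylases were the demethylase group with no rise under either scaling. KDM2B, which binds CpG islands and recruits a variant of Polycomb repressive complex 1, fell to 12.7 and 14.7 RPM in shCDCA8, against 20.8 and 23.2 RPM in shCTRL (-0.65, limma adjusted p = 0.000788, and -0.35 with median-ratio scaling). KDM8, a JmjC protein whose histone activity is debated, had 0.842 and 1.30 RPM in shCDCA8, against 1.97 and 2.14 RPM in shCTRL. Its fall of 0.57 (limma adjusted p = 0.0039) was not called by edgeR (-0.63, adjusted p = 0.0522), by DESeq2 (adjusted p = 0.157), with quantile normalization (-0.18, limma adjusted p = 0.282) or without shCDCA8 replicate 1 (-0.41, limma adjusted p = 0.0612). KDM2A had 64.0 and 76.2 RPM in shCDCA8 and 72.6 and 85.7 RPM in shCTRL and was not called under either scaling. The H3K27 demethylases, which undo the mark that EZH2 lays down, were not called as deposited. KDM6A (UTX) had 80.8 and 86.1 RPM in shCDCA8 and 81.8 and 72.2 RPM in shCTRL (0.12, 95% interval -0.11 to 0.34), and was called higher with median-ratio scaling (0.43, limma adjusted p = 0.00473). KDM6B (JMJD3) had 85.8 and 117 RPM in shCDCA8 and 94.2 and 118 RPM in shCTRL (-0.07, 95% interval -0.39 to 0.25) and was not called under either.

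A ratio of 2 genes within a library does not depend on how the library was scaled. It was computed for 20 pairs of relatives, as a ratio of RPM values without regard to length, so that only its difference between groups can be read. The ratio of KDM1B to KDM1A was 0.696 and 0.678 in shCDCA8, against 0.328 and 0.314 in shCTRL, a 2.14-fold change. The ratio of KDM4B to KDM4A was 3.16 and 4.26 in shCDCA8, against 1.3 and 1.44 in shCTRL, a 2.68-fold change. In both families each knockdown library had a higher ratio of the B gene to the A gene than each control library. Such a separation was common, as the groups did not overlap for 17 of the 20 pairs. Over all kept genes taken singly 83.2% did not overlap, and the share over other pairs of genes was not computed. The ratio was lower in both knockdown libraries than in both controls for KMT2B to KMT2A, KDM2B to KDM2A, KDM3B to KDM3A and KDM5B to KDM5A. The ratio of SETDB2 to SETDB1 was 0.253 and 0.272 in shCDCA8, against 0.116 and 0.0795 in shCTRL. The ratio of KMT2D to KMT2C was 1.24 and 1.4 in shCDCA8, against 2.72 and 4.51 in shCTRL, and that of KDM3B to KDM3A was 1.86 and 2.07 in shCDCA8, against 4.02 and 4.67 in shCTRL. Within the NSD family WHSC1L1 to NSD1 stood at 0.254 and 0.305 in shCDCA8, against 0.108 and 0.113 in shCTRL.

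The ratio of EHMT2 to EHMT1 was 0.686 and 0.692 in shCDCA8, against 0.939 and 0.919 in shCTRL, so the partner genes of the G9a and GLP dimer did not change equally. For SETD1B to SETD1A, SUV420H2 to SUV420H1 and KDM6B to KDM6A the groups overlapped. KDM6B to KDM6A, for example, was 1.06 and 1.36 in shCDCA8 and 1.15 and 1.63 in shCTRL. The ratios are given as values and were not tested.

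**Figure D4:**
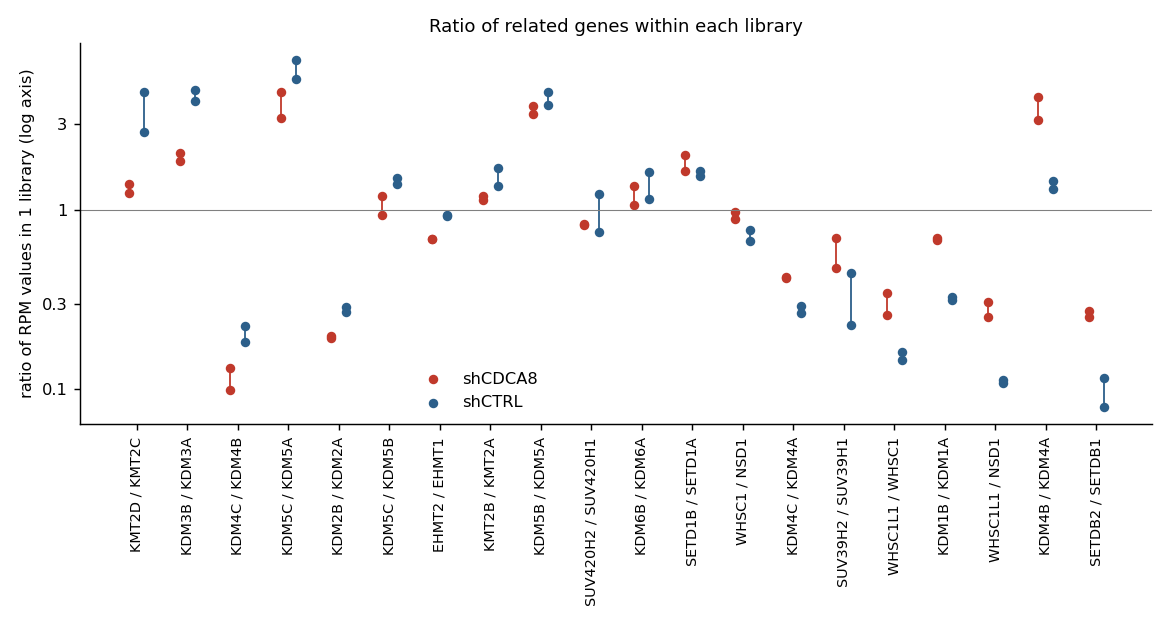
Ratio of the RPM of 2 related genes within each library on a log axis, shCDCA8 in red to the left of shCTRL in blue, for 20 pairs ordered by the change of the ratio. The knockdown libraries lie below the controls for KMT2D to KMT2C (1.24 and 1.4 against 2.72 and 4.51) at the left end and above them for SETDB2 to SETDB1 (0.253 and 0.272 against 0.116 and 0.0795) at the right end.

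Reads of a gene and of an antisense gene that overlaps it cannot be told apart unless counting used strand, which the sources used here do not give. Of the antisense rows named after enzyme genes that rose, none was called higher as deposited or with median-ratio scaling. KMT2E-AS1 had 9.32 and 8.21 RPM in shCDCA8 and 10.9 and 11.2 RPM in shCTRL (limma adjusted p = 0.0543). ASH1L-AS1 had 2.14 and 2.88 RPM in shCDCA8 and 2.74 and 2.44 RPM in shCTRL (limma adjusted p = 0.825). JHDM1D-AS1, named after an older symbol of KDM7A, fell to 5.11 and 5.39 RPM in shCDCA8, against 7.17 and 8.11 RPM in shCTRL (limma adjusted p = 0.00925), a call lost with median-ratio scaling (adjusted p = 0.19).

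Most of these enzymes work in complexes, and the genes of the partner lists are to be read against the 47.6% of all kept genes that fell and the 18.8% that rose as deposited. Of 12 subunits of the H3K4 complexes 6 fell and none rose (median log2 fold change -0.17), and 4 were higher and 4 lower with median-ratio scaling. MEN1, which encodes menin and tethers KMT2A and KMT2B to chromatin, stood at 9.05 and 10.7 RPM in shCDCA8, against 36.6 and 42.1 RPM in shCTRL. It fell by 1.89 on the log2 scale (limma adjusted p = 2.66e-07), more than any of the enzyme genes. NCOA6, a subunit of the KMT2C and KMT2D complexes, fell to 20.0 and 23.8 RPM in shCDCA8, against 63.2 and 72.8 RPM in shCTRL. HCFC1, a subunit of the SETD1 and menin complexes, fell by 0.99 (limma adjusted p = 0.000402).

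Of 12 readers and partners of H3K9 methylation 3 fell and 3 rose (5 higher and 3 lower with median-ratio scaling). CBX1, which encodes the heterochromatin protein HP1 beta that binds methylated H3K9, fell to 10.9 and 9.98 RPM in shCDCA8, against 40.8 and 43.1 RPM in shCTRL. UHRF1, which couples H3K9 methylation to DNA methylation, fell by 1.45, and ZNF644, a zinc finger partner of G9a and GLP, rose by 1.36. Of 11 LSD1 complex genes 5 fell and 3 rose (3 lower and 5 higher with median-ratio scaling). HMG20B fell to 61.8 and 67.2 RPM in shCDCA8, against 118 and 126 RPM in shCTRL. RCOR2 fell by 0.91, at 0.287 and 0.326 RPM in shCDCA8, against 1.26 and 1.67 RPM in shCTRL. This low gene passed the filter only through its shCTRL values. ZMYM3 fell by 0.75. Of 10 genes of the DOT1L and super elongation complexes 5 fell and 2 rose (4 lower and 3 higher with median-ratio scaling). MLLT6, a partner of DOT1L, fell to 62.0 and 74.3 RPM in shCDCA8, against 133 and 159 RPM in shCTRL, MLLT3, a reader that recruits DOT1L, fell by 1.02, and CDK9, the kinase of the elongation complex, by 0.59.

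Of 12 readers of H3K36 and H4K20 methylation 8 fell and 2 rose (6 lower and 4 higher with median-ratio scaling). PHF19, a Polycomb-like reader of H3K36, fell by 1.21 and the DNA methyltransferase DNMT3B by 0.94, while MTF2, another Polycomb-like protein, rose to 10.2 and 8.99 RPM in shCDCA8, against 3.62 and 1.76 RPM in shCTRL. Of 16 kept genes of the same enzyme families outside the rule 8 fell and 3 rose (6 of each with median-ratio scaling). EZH2, the H3K27 methyltransferase, stood at 2.93 and 3.09 RPM in shCDCA8, against 11.3 and 9.72 RPM in shCTRL, JARID2, a JmjC protein without demethylase activity, fell by 1.16, and SMYD5, a SET and MYND domain gene, fell to 3.87 and 4.67 RPM in shCDCA8, against 12.9 and 14.9 RPM in shCTRL. Of 11 kept genes of the S-adenosylmethionine cycle 4 fell and 3 rose (3 lower and 5 higher with median-ratio scaling). MAT2A, which makes the methyl donor, fell to 45.9 and 50.8 RPM in shCDCA8, against 102 and 112 RPM in shCTRL, its regulatory subunit gene MAT2B fell by 1.39, and AHCY, which clears the product of methyl transfer, by 0.78. The medians of these 7 lists lay between -0.57 and -0.10 as deposited, beside -0.27 for all kept genes.

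The labelled cell type was checked against prostate luminal markers, all 10 of which were measured, at a summed 2019 and 2138 RPM in shCDCA8, against 3889 and 4020 RPM in shCTRL. Of the 10, 7 fell and 2 rose as deposited, and 5 were lower and 3 higher with median-ratio scaling, where 47.6% of all kept genes fell and 18.8% rose as deposited. Of the androgen-regulated genes KLK3 fell to 364 and 438 RPM in shCDCA8, against 1454 and 1477 RPM in shCTRL, and KLK2 to 110 and 116 RPM in shCDCA8, against 336 and 346 RPM in shCTRL. The luminal keratins went the other way. KRT8 stood at 333 and 357 RPM in shCDCA8, against 198 and 216 RPM in shCTRL. KRT18 stood at 286 and 294 RPM in shCDCA8, against 196 and 215 RPM in shCTRL. Among markers of other cell types KRT5, TP63, PTPRC, CD3D and CDH5 were not analysed here. The summed level of 6 fibroblast genes was 4.59 and 5.3 RPM in shCDCA8, against 11.9 and 14.5 RPM in shCTRL, nearly all of it COL1A1 and PDGFRB, with DCN and LUM at no more than 0.0642 RPM. Of 4 measured leukocyte and endothelial genes CD68 rose (limma adjusted p = 0.0321) and VWF fell by 1.40, with CD14 and PECAM1 at no more than 0.128 RPM and the 4 summing to 10.2 and 11.8 RPM in shCDCA8, against 11.1 and 14.5 RPM in shCTRL. Of 4 basal genes, which summed to 2.85 and 3.38 RPM in shCDCA8, against 6.68 and 7.19 RPM in shCTRL, ITGB4 fell by 1.49 and KRT14 was not called. Of 6 neuroendocrine genes, which summed to 9.28 and 9.21 RPM in shCDCA8, against 17.3 and 20.6 RPM in shCTRL, DLL3 and ENO2 fell, and CHGA was at no more than 0.0191 RPM. The part of these markers in the values of the enzyme genes was not tested.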

How the data were processed

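PolyA RNA of 2 shCDCA8 and 2 shCTRL libraries of C4-2 cells was analysed from the deposited RPM table of 18892 genes. Per the labels' protocols, RNA for these libraries was isolated with a Qiagen kit and sequenced at BGI (DNBseq). They also mention a Zymo kit and an Illumina preparation, tied to no library type. HTSeq, cutadapt, TopHat, edgeR and the build hg19 are listed in the submitters' processing notes. The annotation and strand setting were not given there. Each deposited RPM value was a whole multiple of a step (100% within 0.01 of a read), so the authors' library totals and whole reads could be recovered. RPM moves with the share of reads outside the gene rows.

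The test was limma 3.58.1 (R 4.3.3) on log2(RPM + 1), with a mean-variance trend, two-sided, Benjamini-Hochberg adjusted over all kept genes. edgeR 4.0.16 and DESeq2 1.42.0 on recovered reads served as alternatives, and edgeR called 7807 genes. The 2 libraries of a group were not duplicates of 1 library: chi-square per degree of freedom was 10 in shCDCA8 and 8.08 in shCTRL. The genes, partner lists and markers were chosen with earlier results of these data known. The text names CDCA8, every enzyme gene, and up to 3 genes per other list with the smallest p. One gene that this rule picks is not reported here. Antisense rows, KRT8, KRT18, DCN, LUM, CD14, PECAM1 and CHGA were named after their values were seen. Of the 47 symbols 42 matched RefSeq by symbol and 5 by an older name.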

Additional observations from a re-analysis of the deposited data

How the results depend on the processing

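Of the 28 called enzyme genes, 18 kept the call and the direction in all alternatives that gave a value: ASH1L, KDM1B, KDM3A, KDM4B, KDM7A, KMT2C, KMT2E, SETDB2, SUV420H1 and SUV420H2 higher, and EHMT2, KDM1A, KDM2B, KDM4A, NSD1, SETD5, SETMAR and WHSC1 lower. The alternatives were 3 other scalings, pseudocounts of 0.5 and 0.1 RPM, no filter, a filter at 5 RPM, no variance trend, edgeR, DESeq2, each library left out and the replicate block. The scaling moved the split of directions. Higher calls numbered 20 with median-ratio scaling, scaling to the reads in rows, edgeR and DESeq2, and 23 with the replicate block and median-ratio scaling. Lower calls numbered 9 with median-ratio scaling, scaling to reads in rows and the block with median-ratio scaling, and 8 with quantile normalization, edgeR and DESeq2. The median log2 fold change was 0.23 with median-ratio scaling (also with the block), 0.17 with quantile normalization, 0.25 with scaling to reads in rows, 0.24 in edgeR and 0.25 in DESeq2. Leaving out 1 library gave a median of -0.18 to -0.02. Such a fit takes its variance from the group that keeps 2 libraries and from a trend over all kept genes. Its calls and p-values are therefore not comparable with those of all 4 libraries.

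The replicate numbers pair no cultures in the labels. Deviations of same-numbered libraries correlated across kept genes (Pearson's r = 0.31, and 0.44 over the 45 enzyme genes, which are not independent replicates), and with the replicate block 35 enzyme genes (17 higher, 18 lower) and 8901 genes in all were called. Beyond the 28, the block called DOT1L and KMT2A (adjusted p = 0.000109 and 0.0125), SETD1A (0.0131) and KDM5B (0.0107) higher, and KDM2A (0.0298), KDM3B (0.00709) and KDM5C (0.0129) lower. Without the filter 27 enzyme genes were called, with KMT2D and SETD2 lost and KDM4D gained, and with the 5 RPM filter 40 were kept.

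Directions turned for 13 genes, none of them called as deposited, and the cause was not tested. With median-ratio scaling, also with the block, KDM2A stood at 0.14, KDM3B at 0.06, KDM4C at 0.14, KDM5C at 0.10, KDM6B at 0.24, KMT2B at 0.20, SETD3 at 0.27, SETD4 at 0.03 and SETD6 at 0.23. With quantile normalization these stood, in the same order, at 0.03, 0.02, 0.11, 0.03, 0.16, 0.17, 0.23, 0.11 and 0.26, and SETD9 at 0.16. With scaling to reads in rows they stood at 0.15, 0.07, 0.15, 0.11, 0.25, 0.22, 0.29, 0.04 and 0.25, in edgeR at 0.13, 0.06, 0.14, 0.10, 0.24, 0.21, 0.28, 0.04 and 0.27, and in DESeq2 at 0.14, 0.06, 0.15, 0.10, 0.25, 0.21, 0.29, 0.05 and 0.28. Leaving out 1 library turned the direction of 7 genes, with a range of -0.29 to 0.15 for KDM6B, -0.36 to 0.17 for KMT2B, -0.18 to 0.12 for SETD6, -0.09 to 0.03 for SETD3, -0.10 to 0.48 for SUV39H2, -0.02 to 0.53 for SETD1A and -0.07 to 0.25 for WHSC1L1. Precision is limited by 2 libraries per group, and low genes such as KDM8 and SETD9 rest on few reads.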
